A study of Rattus norvegicus with 18 samples.

Results

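Rat liver at 12 h after birth was compared with rat liver at 4 h after birth, across all genes measured. The members are the 3 samples titled for 12 h and the 3 titled for 4 h, which makes 6 of the 18 samples of the series. Both groups are livers of Sprague Dawley pups whose birth was directly observed, from dams kept on free food and water, and neither group carries an allele or a treatment. The tissue was flash frozen, and its total RNA was measured on Affymetrix Rat Transcriptome 1.0 arrays, with 1 sample per array. The other 4 ages of the series are embryonic day 21, written E21, then 30 min, 1 day and 7 days. They show where a gene stood before and after. Their arrays also enter the estimate of spread behind the standard errors and p-values, so a wide spread at another age widens these. The design text gives dams in triplicate. The labels do not state whether the pups had suckled, the time of day, the sex or the number of pups in a sample. What the p-values measure is the spread between samples of the same age, pooled over the 18 arrays.

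Before birth the fetal liver receives glucose from the mother and makes fat and cholesterol. After birth the pup first lives on its glycogen and on gluconeogenesis, which is driven by glucagon and cyclic AMP (cAMP) through the factor CREB and its coactivators. Milk is rich in fat, and the suckling liver burns long-chain fatty acids and makes ketone bodies from them. Fatty acids switch on genes of oxidation and lipid storage through the nuclear receptor PPAR alpha. Cholesterol holds back the processing of the SREBP factors, which drive the genes of cholesterol and fatty acid synthesis. This is background, and none of these factors or metabolites was measured here.

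Values are log2 of the deposited intensity, in which a difference of 1 is a 2-fold difference. Changes are 12 h minus 4 h, each with the standard error from limma over 3 arrays per age, and the threshold was an adjusted p of 0.05 (Benjamini-Hochberg, over 18926 genes). Array medians of the deposited intensity lay between 61.9 and 65.5 on the 6 arrays. Genes taken to be silent in liver (27 genes, 162 readings) gave log2 levels of 3.05 to 7.16 with a median of 4.65. Their 95th percentile, 6.38, serves below as the silent level. Where no array of the dimmer age exceeded it, a called change is given as a lower bound and no size is given for other genes. Sizes are also uncertain where the dimmer arrays lay within the range of the silent genes. At the other end, 20 genes lay within 0.1 of the highest log2 value, 19.93, on all 6 arrays, and no change could be measured in them.

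The hepatocyte plasma protein list (14 members) had a summed level of 23.01 to 23.03 log2 at 12 h and 22.96 to 23.01 at 4 h. Markers of the labelled tissue were thus present, and none of the list's members passed. A sum this high needs members near the top of the scale, 19.93, where changes may not be measurable. The lack of calls therefore does not show that hepatocyte content was equal at the 2 ages. Of the blood and non-hepatocyte marker lists, those of red cell precursors, platelets, neutrophils, macrophages, T and NK cells, B cells and bile duct cells had 0 members past the threshold in either direction. The erythroid list summed to 20.37 to 20.58 log2 at 12 h and 20.25 to 20.50 at 4 h, and its median change was 0.27. In bulk tissue, fewer cells of a type and less RNA per cell cannot be told apart. Over all genes, arrays correlated at 0.9912 to 0.9939 within 12 h, at 0.9873 to 0.9937 within 4 h and at 0.9761 to 0.9839 between the ages. The third replicate of 4 h stood apart from the other 4 h arrays in several lists. Its cAMP list had a median of −0.61 log2 relative to the 4 h mean, against 0.19 and 0.28 in the other 4 h arrays. Its 3 fatty acid oxidation lists had medians of 0.48 to 0.60, while the erythroid list had −0.63. Values without it are given below where it changed the call of a gene described or moved a called change by over 1.5-fold.

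Between the ages 1684 of 18926 genes passed, which is 8.9%. At 12 h 961 genes were higher (5.08%) and 723 were lower (3.82%), and the median change of all genes was 0.01 log2. The counts of list members given below are to be read beside these shares. In 4482 genes (23.7%) the 3 arrays of 12 h did not overlap the 3 of 4 h. Changes over 2-fold were found in 297 of the genes that rose and 353 of those that fell, and changes over 8-fold in 25 and 37. The dimmer age lay at the silent level in 184 of the genes that rose and 116 of those that fell. The counts moved with single arrays. Without 12 h replicate 1 there were 491 higher and 392 lower genes. Leaving out 12 h replicate 2 gave 603 higher, 4 h replicate 1 gave 507 higher and 449 lower, and 4 h replicate 2 gave 636 higher and 433 lower. Without the third replicate of 4 h there were 986 and 802. In each of these 6 fits 406 of the genes that rose and 326 of those that fell passed.

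**Figure D1:**
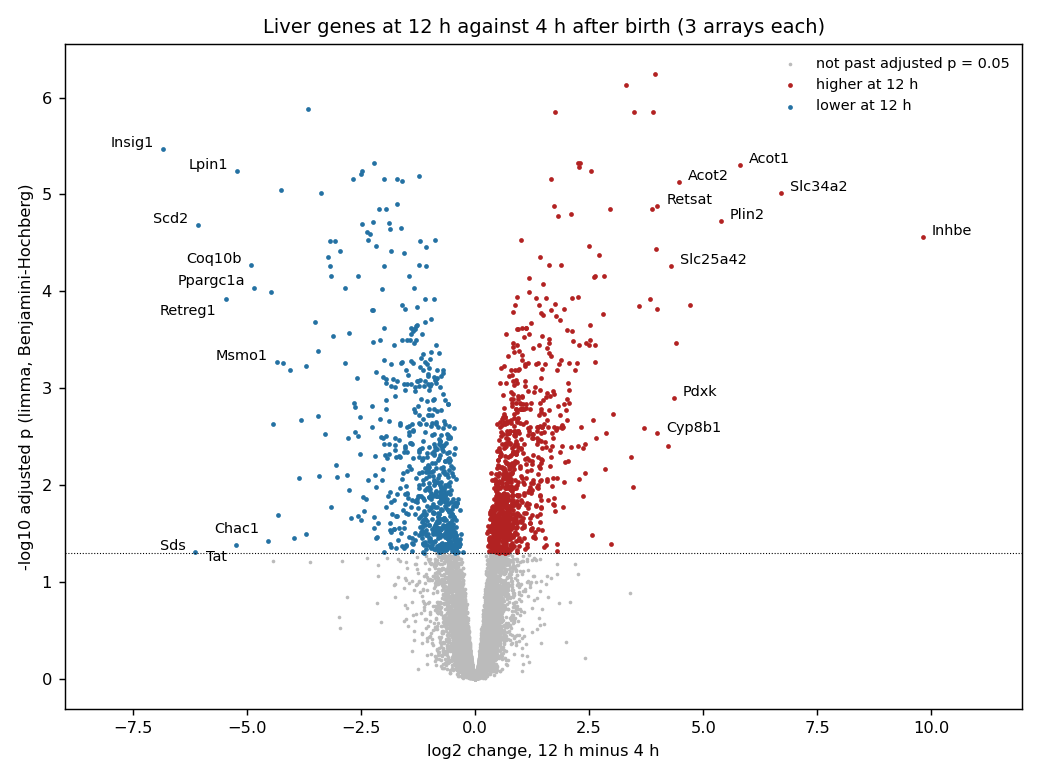
Each point is 1 gene, with the log2 change at 12 h minus 4 h on the horizontal axis and −log10 of the limma adjusted p on the vertical axis, and the dotted line marks an adjusted p of 0.05. The 961 genes higher at 12 h lie at the upper right with Inhbe farthest out at 9.81, and the 723 lower genes at the upper left with Insig1 at −6.85.

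The gene with the largest rise was Inhbe (TC0700002919.rn.1), which encodes the subunit of activin E, a factor that the liver secretes. It read 16.72, 16.72 and 16.06 at 12 h and 6.37, 6.73 and 6.96 at 4 h. Its 4 h arrays sat at or near the silent level, and its 12 h arrays were far above them. The change was 9.81 ± 1.00, which is 900-fold (limma adjusted p = 2.77e-05). The size of that fold is uncertain, because the 4 h arrays lay within the range of the silent genes. Mean levels over the series were 8.34 at E21, 7.78 at 30 min, 6.68 at 4 h, 16.50 at 12 h, 16.77 at 1 day and 14.99 at 7 days. Inhbc, which encodes a related liver activin subunit, read 13.03, 12.67 and 13.32 at 12 h and 9.79, 10.69 and 11.58 at 4 h. It rose by 2.32 ± 0.42 (0.00254). Neither Inhba nor Inhbb passed, and their 4 h arrays were all below the silent level. Among the 17 members of the inhibin and hepatokine list 3 were higher and 14 did not pass, with a median of 0.07. Fgf21, a hormone of fasting and fat feeding, did not pass (0.586), with 5.98, 6.45 and 5.63 at 12 h and 4.89, 4.85 and 4.91 at 4 h, so that only 1 array exceeded the silent level. Its standard deviation was 0.41 at 12 h and 0.03 at 4 h but 3.02 at 1 day, an age that also enters the fit.

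One list held genes that PPAR alpha is known to switch on, outside oxidation itself. Of its 24 members 15 rose, 0 fell and 9 did not pass, with a median of 1.56 log2, where 5.08% of all genes were higher. Plin2, which coats lipid droplets, read 16.46, 16.73 and 16.35 at 12 h, against 10.40, 10.85 and 12.14 at 4 h. All 3 arrays of 12 h were above every 4 h array, and the change was 5.38 ± 0.53 (41.8-fold, adjusted p = 1.89e-05). The droplet gene Cidec (2.87 ± 0.53, and 3.64 without 4 h replicate 3) and G0s2 (3.41 ± 0.68), which holds back the lipase Pnpla2, rose as well. Plin5, another droplet gene, passed (0.000725), but it lay near the silent level at 12 h and below it at 4 h, so no fold is given. Pnpla2 itself was at −0.98 ± 0.47 (0.252).

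Acot1, a cytosolic thioesterase that splits acyl-CoA, read 12.33, 13.08 and 11.90 at 12 h, against 6.26, 6.96 and 6.69 at 4 h, a rise of 5.80 ± 0.47 (4.93e-06). The size of that rise is uncertain, because the 4 h arrays of Acot1 lay within the range of the silent genes. Acot2, the mitochondrial relative of Acot1, rose by 4.46 ± 0.39. Acot3 (4.71 ± 0.58, and 4.12 without 12 h replicate 2), Acot4 (3.96 ± 0.42) and Acot5 (2.63 ± 0.37) rose too. These thioesterases are close paralogs, and signal shared between their probes was not tested. Angptl4, a secreted inhibitor of lipoprotein lipase, read 12.08, 12.99 and 10.92 at 12 h and 6.14, 8.81 and 8.35 at 4 h. It rose by 4.23 ± 0.81 (0.00399) despite a wide spread at both ages, and by 3.41 without 4 h replicate 1. Retsat, which saturates retinol, rose by 4.00 ± 0.37 and Fabp1, the fatty acid carrier of the liver cytosol, by 2.41 ± 0.51. Vnn1, a pantetheinase, passed at 1.56 ± 0.45 (0.0421) but not with the replicate number as a block (0.0546). It passed only when 4 h replicate 3 was the array left out, and reached an adjusted p of 0.183 without one of the others. Ppara, the gene of the receptor, was at 0.20 ± 0.34 (0.85). Counts of higher members were 13 to 15 when single arrays were left out. Without 4 h replicate 3 there was 1 lower member, Cidea (0.0492), whose arrays of both ages lay below the silent level.

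Fatty acids enter mitochondria through the carnitine shuttle, and 8 of the 9 measured genes of that shuttle and of ketone body synthesis were higher, with a median of 1.71. Cpt1a, the rate-limiting carnitine palmitoyltransferase, read 16.53, 16.57 and 16.37 at 12 h, against 13.68, 14.04 and 13.83 at 4 h. The arrays within each age lay close together, and the rise was 2.64 ± 0.49 (6.24-fold, 0.00326). Slc22a5, the carnitine importer of the cell membrane, rose by 2.84 ± 0.59. Crat and Crot, which move short and medium acyl chains between CoA and carnitine, rose by 2.64 ± 0.30 and 3.83 ± 0.47. Slc25a20, the carrier that exchanges acylcarnitines across the inner membrane, rose by 1.43 ± 0.30. Bdh2 was the member that did not pass, and it lay below the silent level on all 6 arrays. Leaving out 4 h replicate 1 left 5 higher members.

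Within mitochondria, 8 of 18 beta oxidation genes were higher and 0 lower, with a median of 0.77. Eci1, an enoyl-CoA isomerase, read 11.93, 11.16 and 11.44 at 12 h and 8.79, 8.74 and 9.72 at 4 h, and rose by 2.43 ± 0.33. Hadh rose by 1.94 ± 0.24, Acaa2 by 1.45 ± 0.25 and the long-chain dehydrogenase Acadl by 1.22 ± 0.20. The electron carriers of the pathway moved less, with Etfa at 0.11 ± 0.20, Etfb at 0.51 ± 0.21 and Etfdh at 0.68 ± 0.21, none of which passed. Without 4 h replicate 3 Etfb (0.78, adjusted p = 0.0146) and Etfdh (0.93, 0.00679) did. The number of higher members was 4 without 4 h replicate 1 or 4 h replicate 2 and 12 without 4 h replicate 3.

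Of 14 genes of peroxisomal and microsomal oxidation 7 were higher and 0 lower, with a median of 1.71. Abcd3, a peroxisomal importer of fatty acids, read 15.20, 15.60 and 15.04 at 12 h, against 12.66, 12.62 and 13.70 at 4 h. It rose by 2.29 ± 0.32 (0.00036). Its relative Abcd2 rose by 1.88 ± 0.34, the dienoyl-CoA isomerase Ech1 by 2.50 ± 0.35 and the fatty aldehyde dehydrogenase Aldh3a2 by 1.45 ± 0.30. The bifunctional enzyme Ehhadh read 16.57, 16.97 and 16.80 at 12 h and 13.50, 14.22 and 16.36 at 4 h. Cyp4a1, a fatty acid hydroxylase, read 16.47, 16.40 and 16.40 at 12 h and 13.00, 14.15 and 15.36 at 4 h. In both genes the 12 h arrays lay above all 4 h arrays, while the third replicate of 4 h came close, and neither passed (2.09 ± 0.85, 0.164, and 2.25 ± 0.76, 0.0841). Without that array both did, Ehhadh at 2.92 (0.0422) and Cyp4a1 at 2.85 (0.0379). The list had 11 higher members without 4 h replicate 3 and 4 without 12 h replicate 2.

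**Figure D2:**
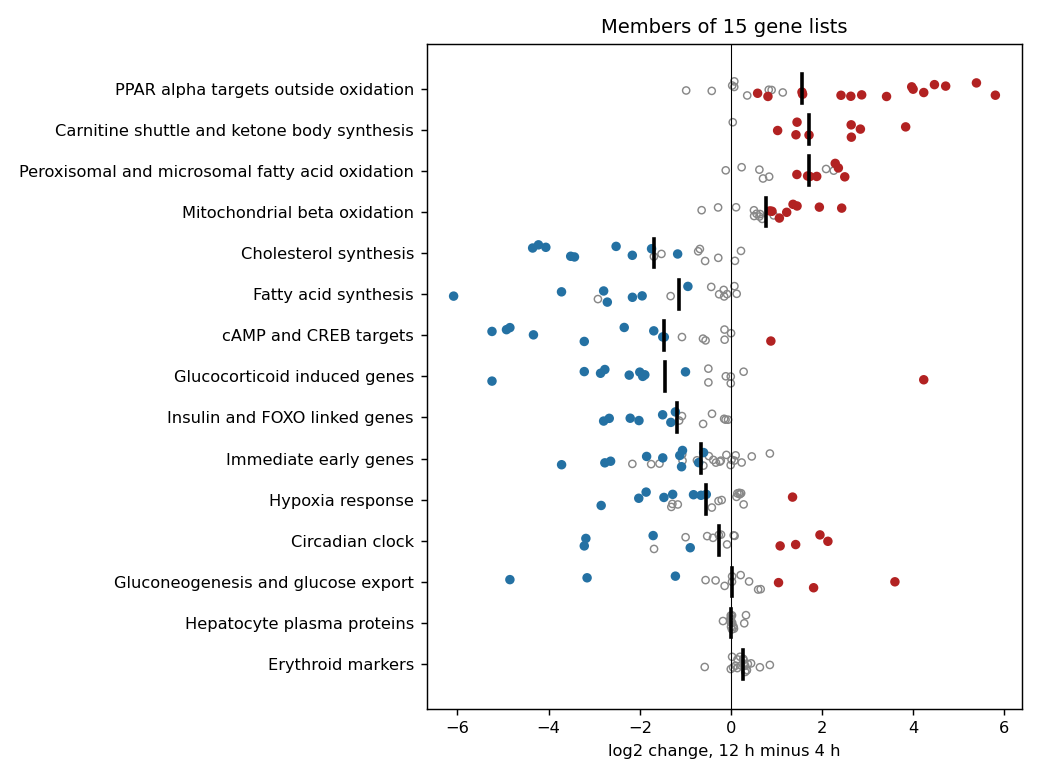
Each row is a gene list and each point a member, at its log2 change at 12 h minus 4 h, in red where the member was higher and in blue where it was lower at an adjusted p under 0.05, and open where it did not pass. The black bar is the median of all measured members, which runs from 1.71 for the carnitine shuttle list to −1.69 for cholesterol synthesis, while the members of the hepatocyte plasma protein and erythroid lists are all open.

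In cholesterol synthesis the calls were all in the other direction. Of 17 measured members 9 were lower, 0 higher and 8 not past, with a median of −1.69, where 3.82% of all genes were lower. Msmo1, which removes methyl groups from sterols, read 10.07, 10.12 and 9.31 at 12 h, against 14.12, 14.04 and 14.39 at 4 h. The ages were far apart and the change was −4.35 ± 0.63 (0.00054). Sqle, the squalene epoxidase that is a control point of the pathway, fell by 4.22 ± 0.62 and Cyp51 by 4.06 ± 0.61. Fdft1, which makes squalene, fell by 3.52 ± 0.45. Lss, which closes the sterol rings, fell by 3.43 ± 0.74, and Idi1, an isomerase early in the pathway, fell by 2.52 ± 0.44. Sc5d (0.09 ± 0.29) and Nsdhl (0.22 ± 0.51), which act late in the pathway, did not pass and their arrays overlapped between the ages. Counts of lower members were 7 or 8 when single arrays were left out.

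Among the sterol sensors stood the gene with the largest fall of those whose ages did not overlap. Insig1 (TC0400000004.rn.1), which keeps SREBP in the endoplasmic reticulum, read 7.53, 8.75 and 8.65 at 12 h and 15.27, 15.31 and 14.89 at 4 h. No array came near the other age, and the change was −6.85 ± 0.52, with the 4 h level 115-fold above the 12 h level (3.37e-06). Insig2 was at −0.18 ± 0.36 (0.879). Stard4, a cholesterol transfer protein, fell by 3.38 ± 0.31 and Srebf2, the factor of cholesterol synthesis, by 1.10 ± 0.17. Scap, its escort, was at 0.15 ± 0.25 (0.84). In this list of 16, 2 rose, 4 fell and 10 did not pass, with a median of −0.01. The higher ones, Npc1 (1.02 ± 0.29) and Nr1h3 (1.15 ± 0.26), both failed without 4 h replicate 1 and without 12 h replicate 2. Abcg1, a sterol exporter that the oxysterol receptors are known to induce, fell by 1.88 ± 0.33, while its relatives Abcg5 (0.186) and Abcg8 (0.109) did not pass and lay below the silent level at 4 h.

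Fatty acid synthesis fell in 7 of 16 members, with 0 higher and a median of −1.13. Scd2, a desaturase that makes monounsaturated fatty acids, read 11.37, 11.81 and 11.18 at 12 h, against 17.38, 17.16 and 18.07 at 4 h. It fell by 6.08 ± 0.60 (2.05e-05). Srebf1, the factor of fat synthesis, read 7.85, 7.50 and 7.81 at 12 h and 10.54, 10.28 and 10.73 at 4 h, and fell by 2.79 ± 0.52. Acaca, which makes malonyl-CoA, fell by 1.95 ± 0.36. Fasn, the fatty acid synthase, was at −2.92 ± 0.91 (0.0613), and its 12 h arrays of 9.22, 8.27 and 8.35 lay below its 4 h arrays of 11.30, 10.82 and 12.47. The standard deviation of Fasn was 0.52 at 12 h and 0.85 at 4 h but 2.16 at E21, an age that also enters the standard error. Acly, which makes cytosolic acetyl-CoA, passed at −2.16 ± 0.60 (0.0348), but not in the blocked fit (0.0537) nor without any single array (up to 0.105). Scd and Scd2 are close paralogs. The number of lower members was 5 in the blocked fit, 4 without 12 h replicate 2 or 4 h replicate 1 and 3 without any one of the other 4 arrays. Elovl5, an elongase of polyunsaturated chains, rose by 1.99 ± 0.34, the only one of 11 genes of polyunsaturated fatty acid synthesis that passed, and Fads1 (−0.64 ± 0.71) and Fads2 (−0.79 ± 0.69) did not.

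The promoters shown are those of the gene with the largest fall in each sterol list that holds the letters marked. They come from RefSeq on the rat build GRCr8, and the window runs from 250 bases before to 50 bases after the annotated start. Insig1 lies on the minus strand at chr4:8057720-8058019 and Msmo1 on the plus strand at chr16:29746863-29747162. Capitals mark CCAAT on either strand, the letters bound by the factor NF-Y, which is known to act beside SREBP.
Insig1: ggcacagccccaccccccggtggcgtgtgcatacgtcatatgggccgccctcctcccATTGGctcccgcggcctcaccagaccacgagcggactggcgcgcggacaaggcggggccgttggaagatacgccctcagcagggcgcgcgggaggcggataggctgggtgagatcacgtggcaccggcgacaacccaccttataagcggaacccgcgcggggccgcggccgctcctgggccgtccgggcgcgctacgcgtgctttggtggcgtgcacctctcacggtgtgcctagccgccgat
Msmo1: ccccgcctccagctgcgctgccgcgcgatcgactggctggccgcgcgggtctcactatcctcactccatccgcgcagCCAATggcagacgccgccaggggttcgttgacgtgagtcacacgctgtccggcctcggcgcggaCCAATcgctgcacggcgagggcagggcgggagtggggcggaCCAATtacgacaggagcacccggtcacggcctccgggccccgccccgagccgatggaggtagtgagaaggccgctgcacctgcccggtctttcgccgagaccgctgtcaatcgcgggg
CCAAT stood in 11 of the 14 cholesterol synthesis promoters found in the table, in 37.7% of all 27457 promoters, and in 36.4% of those of the genes lower at 12 h. In all 14 letter patterns were searched on both strands in 8 lists, and the 2 patterns shown were chosen after their counts were seen. The sterol-type letters TCACNCCAC and TCACCCCAC had 0 matches in the 14 cholesterol promoters, and the shorter CACNCCAC had 2, against 5.7% of all promoters. For the PPAR alpha list the direct repeat of AGGTCA spaced by 1 base had 0 matches in 23 promoters, and 0.0583% of all promoters held it. A match is a description of these letters only, and many control elements lie outside this window.

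In a list of genes linked to cAMP and CREB, 9 of 16 members were lower at 12 h, 1 was higher and 6 did not pass. The median was −1.48, and the list holds regulators such as Crtc2 and Sik2 beside induced genes. Pck1, a member taken up again below, did not pass (−0.56 ± 1.13, limma adjusted p = 0.879). Ppargc1a, the coactivator of gluconeogenesis and mitochondrial genes, read 7.46, 8.05 and 7.64 at 12 h, against 13.31, 13.14 and 11.26 at 4 h. It fell by 4.85 ± 0.57 (9.31e-05), and it had been at 9.25 at E21, 10.02 at 30 min and 12.57 at 4 h, before 7.72 at 12 h and 8.47 at 1 day. Coq10b, a chaperone of coenzyme Q, read 8.89, 8.50 and 9.15 at 12 h and 14.86, 14.28 and 12.17 at 4 h, and fell by 4.92 ± 0.54 (5.37e-05). Its mean levels were 8.16 at E21, 9.33 at 30 min, 13.77 at 4 h, 8.85 at 12 h and 8.52 at 1 day, so its 4 h arrays stood above every other age. Per1, a clock gene that hormones induce within hours, fell by 3.22 ± 0.35 and the phosphodiesterase Pde3b by 1.46 ± 0.26. Sik2 was the member that rose, by 0.88 ± 0.16.

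In both Ppargc1a and Coq10b the third replicate of 4 h was the lowest of the 4 h arrays and still above every 12 h array, and without it the changes were −5.50 and −5.72. Sik1, a kinase that holds back the CREB coactivators, read 9.54, 10.15 and 10.12 at 12 h and 16.01, 15.88 and 10.91 at 4 h. It passed at −4.33 ± 1.08 (0.0205) and without the third replicate of 4 h the change was −6.01. It did not pass without 12 h replicate 1 or 2 or 4 h replicate 1 (−3.46) or 2 (−3.53), with an adjusted p of up to 0.108. The list had 8 lower members without the third replicate of 4 h and 4 without 4 h replicate 1, 5 without 12 h replicate 1 or 4 h replicate 2.

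The promoters of Ppargc1a, on the plus strand at chr14:63634058-63634357, and of Coq10b, on the plus strand at chr9:64047918-64048217, are shown as those of the list's members with the largest falls that hold TGACG. Capitals mark that core of the CREB element on either strand, and in Ppargc1a the matches on the 2 strands overlap to give TGACGTCA.
Ppargc1a: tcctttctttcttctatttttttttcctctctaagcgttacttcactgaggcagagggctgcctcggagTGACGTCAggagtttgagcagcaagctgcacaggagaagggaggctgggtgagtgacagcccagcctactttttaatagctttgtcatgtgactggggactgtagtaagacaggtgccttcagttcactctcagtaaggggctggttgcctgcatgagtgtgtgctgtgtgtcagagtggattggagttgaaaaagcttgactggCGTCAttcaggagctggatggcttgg
Coq10b: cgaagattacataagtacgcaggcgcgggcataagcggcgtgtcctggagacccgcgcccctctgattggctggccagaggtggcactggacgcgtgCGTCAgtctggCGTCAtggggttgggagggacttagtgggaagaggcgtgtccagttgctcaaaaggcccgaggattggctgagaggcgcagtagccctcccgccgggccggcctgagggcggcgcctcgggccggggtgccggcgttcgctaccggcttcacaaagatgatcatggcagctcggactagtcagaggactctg
TGACG stood in 9 of the 15 promoters of this list, in 21.96% of all promoters and in 25.5% of those of the genes tested. It also stood in 8 of the 14 cholesterol synthesis promoters, in 32.9% of the promoters of genes lower at 12 h and in 28.6% of those of genes higher at 12 h. The full element TGACGTCA was in 1 promoter of the list, that of Ppargc1a, and in 1.91% of all promoters.

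Genes of glucose output did not move as a group. In this list of 15, 3 rose, 3 fell and 9 did not pass, with a median of 0.03. Pck1, the rate-limiting enzyme of gluconeogenesis, read 17.14, 17.72 and 17.08 at 12 h, against 18.51, 18.39 and 16.71 at 4 h, and did not pass (−0.56 ± 1.13, 0.879). G6pc1, the catalytic subunit that releases glucose, read 16.68, 17.12 and 16.88 at 12 h and 17.06, 17.16 and 14.68 at 4 h (0.60 ± 0.79, 0.79). In both genes the ages overlapped and the third replicate of 4 h was the lowest array. Fbp1, fructose bisphosphatase, rose by 1.04 ± 0.21, the dicarboxylate carrier Slc25a10 by 1.81 ± 0.30, and Gpd1, which links glycerol to glucose and triglyceride, by 3.60 ± 0.44. Gpd1 read 16.76, 16.74 and 16.81 at 12 h and 12.39, 12.43 and 14.71 at 4 h, and without the third 4 h array the rise was 4.36. Foxo1, the factor that insulin excludes from the nucleus, fell by 1.22 ± 0.13.

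Of 14 genes linked to insulin and FOXO 7 were lower, 0 higher and 7 not past, with a median of −1.18. Sesn1, which restrains growth signalling, fell by 2.67 ± 0.23, Klf15, a factor of amino acid use in fasting, by 2.02 ± 0.31, and Pik3r1 by 1.32 ± 0.17. Irs2, an insulin receptor substrate, read 10.23, 10.26 and 9.80 at 12 h and 13.15, 12.99 and 10.78 at 4 h. It passed at −2.21 ± 0.56 (0.0214), and of the 6 arrays only 4 h replicate 3 could be left out with the call kept (−2.98 without it, and up to 0.11 without another). Igfbp1, a binding protein that insulin lowers, did not pass at −1.07 ± 0.33 (0.0541) and passed in the blocked fit (0.0337). Its 4 h arrays lay at 19.93, 19.93 and 19.50, at or near the top of the scale.

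The glucocorticoid list, which shares Per1, Tat and Angptl4 with lists above, had 9 members lower, 1 higher and 6 not past among 16 members, with a median of −1.44. Nr3c1, the glucocorticoid receptor, read 11.14, 11.70 and 11.19 at 12 h, against 13.99, 13.98 and 12.76 at 4 h, and fell by 2.23 ± 0.28 (0.000157). Zbtb16, a repressor that glucocorticoids induce, fell by 2.86 ± 0.34, the kinase Sgk1 by 2.00 ± 0.29 and Errfi1, which restrains the EGF receptor, by 1.94 ± 0.39. Fkbp5, a chaperone often used to read out this receptor, was at −0.50 ± 0.22 (0.218). Mt1 could not be measured because all of its arrays were at the top of the scale. Leaving out 4 h replicate 2 left 6 lower members.

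Immediate early genes, which respond to growth and stress signals, were lower in 10 of 30 members, higher in 0 and not past in 20, with a median of −0.66. Gadd45b read 6.02, 6.86 and 6.35 at 12 h and 11.02, 10.50 and 8.86 at 4 h, and fell by 3.72 ± 0.55, and the change was −4.35 without 4 h replicate 3. Myc fell by 2.64 ± 0.44 and Klf6 by 1.85 ± 0.27. Egr1 (0.23 ± 0.74) did not pass. Fos read 4.52, 4.51 and 4.47 at 12 h, all below the silent level, and 6.90, 6.71 and 5.13 at 4 h. It did not pass (0.107), while without 4 h replicate 3 it was lower (0.0357). The number of lower members was 13 without the third replicate of 4 h, 6 without 12 h replicate 1 and 5 without 4 h replicate 1 or 2.

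In the hypoxia list 8 of 21 members were lower, 1 higher and 12 not past, with a median of −0.54. Bnip3, a mitophagy receptor, fell by 2.85 ± 0.42 (−3.52 without 12 h replicate 2), the glucose transporter Slc2a1 by 2.02 ± 0.38 and the oxygen-sensitive factor Epas1 by 1.47 ± 0.22. Ldha, the lactate dehydrogenase subunit, went against them and rose by 1.35 ± 0.25. The lower members numbered 4 without 12 h replicate 1 or 3 or 4 h replicate 1, and 5 without 4 h replicate 2.

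Autophagy genes were split, with 5 higher, 5 lower and 13 not past among 23 and a median of 0.11. Retreg1, the receptor that directs endoplasmic reticulum into autophagosomes, read 6.61, 7.44 and 6.63 at 12 h, against 12.70, 13.89 and 10.51 at 4 h. It fell by 5.47 ± 0.66 (0.00012), and the change was −6.40 without 4 h replicate 3 and −4.71 without 4 h replicate 2. Its mean of 12.37 at 4 h stood above 7.56 at E21, 8.21 at 30 min and 6.76 at 1 day. Gabarapl1, which binds such receptors to the membrane, fell by 3.82 ± 0.67 and Map1lc3b by 1.49 ± 0.29. Ulk2, a kinase that starts autophagy, rose by 1.02 ± 0.15 and Becn1 by 0.59 ± 0.10. The count of higher members was 2 without 12 h replicate 1 or 4 h replicate 1, and 3 without any one of the other 4 arrays. Edem1, which sends misfolded glycoproteins to destruction, read 13.11, 13.12 and 13.16 at 12 h and 17.68, 17.39 and 17.11 at 4 h. It fell by 4.26 ± 0.38 (8.91e-06), while of the other 18 genes of the chaperone and unfolded protein list Ern1 fell by 1.17 ± 0.24 and 17 did not pass. Tp53inp1, a stress protein of autophagy outside the lists, fell by 4.47 ± 0.53.

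**Figure D3:**
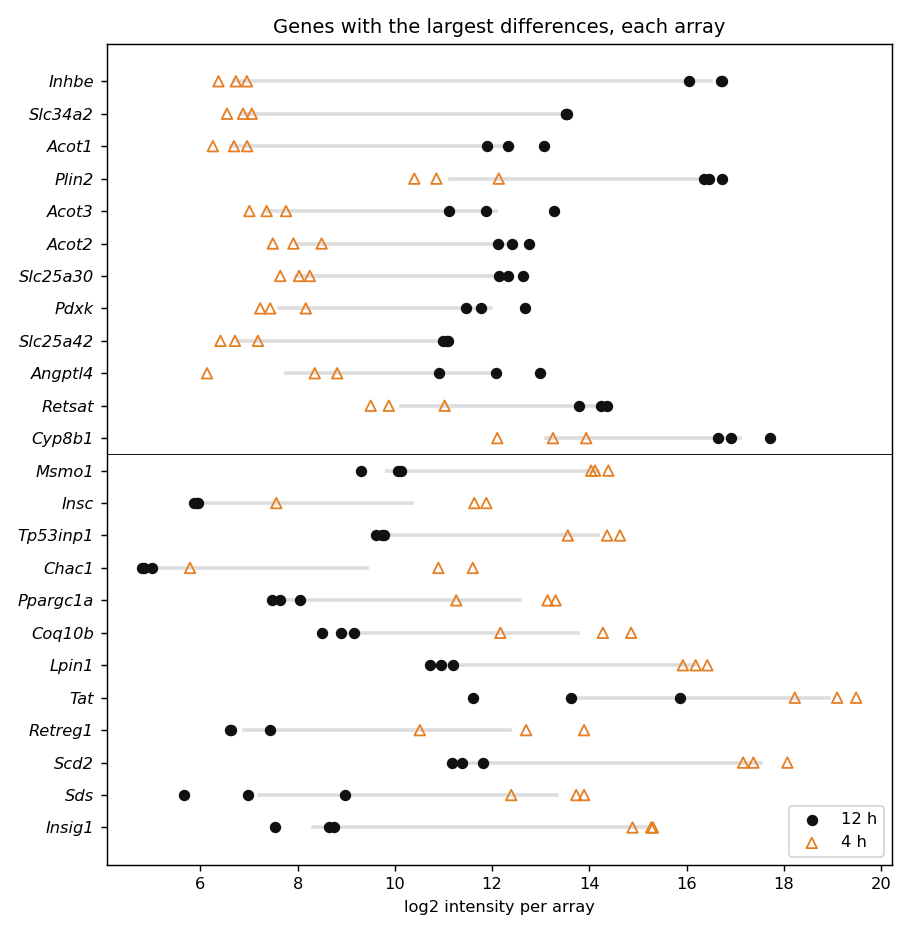
Log2 intensity on each array for the 12 genes with the largest rises (upper block) and the 12 with the largest falls (lower block) among those whose ages did not overlap, with filled circles for 12 h, open triangles for 4 h and a grey line between the means. Inhbe spans from 6.37 on its lowest 4 h array to 16.72 at 12 h, and in Chac1 and Insc 1 array of 4 h lies near the 12 h arrays.

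Amino acid catabolism was lower in 5 of 29 members, higher in 1 and not past in 23, with a median of −0.30. Sds, which breaks down serine, read 5.66, 8.98 and 6.98 at 12 h, against 13.73, 13.89 and 12.39 at 4 h. Tat, which starts tyrosine breakdown, read 11.60, 15.87 and 13.62 at 12 h and 19.10, 19.49 and 18.23 at 4 h. In both genes 12 h replicate 2 was the highest of its age and still below all 4 h arrays. The changes were −6.14 ± 1.83 (0.0488) and −5.24 ± 1.51 (0.0415). Sds did not pass in the blocked fit (0.0642) or without any single array (up to 0.185), and its change was −7.02 without 12 h replicate 2 and −5.36 without 12 h replicate 1. With an array left out Tat passed only without 12 h replicate 2, at −6.33, and was at −4.19 without 12 h replicate 1 (up to 0.19). Hgd, later on the tyrosine route, fell by 1.59 ± 0.34. The number of lower members was 5 without 12 h replicate 2, 2 without 4 h replicate 1 or 3, and 1 without any one of the other 3 arrays. In the urea cycle 1 of 11 genes was lower, the ornithine carrier Slc25a15 at −3.44 ± 0.59, and Cps1, its entry enzyme, was at −0.31 ± 0.33 (0.71). Chac1, which degrades glutathione, read 4.84, 5.01 and 4.80 at 12 h and 10.89, 11.60 and 5.79 at 4 h. Its 12 h arrays were all below the silent level, so it was lower by at least 8.25-fold (0.0376), or by at least 29.1-fold without 4 h replicate 3. That bound was 4.96-fold without 4 h replicate 1 and 3.88-fold without 4 h replicate 2. The call was lost without any one array other than 4 h replicate 3 (up to 0.166). Atf5, a factor of the same amino acid response, rose by 1.71 ± 0.32, and Atf4 was at −0.62 ± 0.26 (0.191).

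In triglyceride and lipoprotein assembly 4 of 19 genes were higher, 2 lower and 13 not past, with a median of 0.22. Lpin1, a phosphatidate phosphatase that also acts with Ppargc1a, read 10.95, 11.20 and 10.72 at 12 h, against 16.19, 16.43 and 15.93 at 4 h. It fell by 5.22 ± 0.44 (5.66e-06), and its relative Lpin2 fell by 2.17 ± 0.23. Mttp, which loads fat onto lipoproteins, rose by 1.91 ± 0.34, Tm6sf2, which acts in the same step, by 1.74 ± 0.28, Agpat2 by 1.35 ± 0.24 and Dgat1, which closes triglyceride synthesis, by 0.90 ± 0.15.

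Bile acid genes were 2 higher, 2 lower and 12 not past of 16, with a median of 0.01. Cyp8b1, which directs synthesis to cholic acid, read 16.91, 17.72 and 16.64 at 12 h and 13.25, 12.11 and 13.94 at 4 h, and rose by 3.99 ± 0.73 (0.00294). Cyp7a1, the rate-limiting enzyme, read 13.96, 14.65 and 13.14 at 12 h and 19.07, 18.18 and 17.83 at 4 h. All of its 12 h arrays were lower, but the change of −4.44 ± 1.38 did not pass (0.0603). Its standard deviation was 0.76 at 12 h and 0.64 at 4 h but 4.04 at 1 day, an age that also enters the standard error. Abcc2, which exports conjugates into bile, fell by 3.13 ± 0.42 (0.000287). The other calls of the list were fragile. Nr1h4, the bile acid receptor, passed at 1.53 ± 0.43 (0.0352), but of the single arrays only 4 h replicate 3 could be left out with its call kept, and the list then had 4 higher members. Abcb4, the phospholipid exporter, passed at −1.11 ± 0.31 (0.0391) but not in the blocked fit (0.0513), and of the single arrays only 12 h replicate 3 could be left out with its call kept (up to 0.136).

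In the clock list 4 of 17 genes were higher, 4 lower and 9 not past. Dbp, an output factor of the clock, read 7.17, 7.18 and 7.92 at 12 h, against 5.13, 5.20 and 5.56 at 4 h. It was at least 2.05-fold higher, a bound because all its 4 h arrays were below the silent level (0.000118). That bound ran from 1.73-fold without 12 h replicate 3 to 2.25-fold without 12 h replicate 1. Nr1d1, a repressor of Bmal1, rose by 1.95 ± 0.32 and Bmal1 fell by 1.71 ± 0.26. Rora, which activates Bmal1, fell by 3.18 ± 0.33 and Cry1 by 0.89 ± 0.19. Per2 was at 0.08 ± 0.25 and Nr1d2 at −0.22 ± 0.33, with overlapping arrays. The labels give no time of day, so age and time of day cannot be told apart. Higher members numbered 2 without 12 h replicate 1 or 4 h replicate 1 or 2.

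Among nuclear receptors and liver factors 2 of 19 were higher and 6 lower. The higher ones, Nr1h4 and Nr1h3, both failed without 12 h replicate 2 or 4 h replicate 1, so that 0 were left. Thrb, a thyroid hormone receptor, fell by 1.85 ± 0.20, the liver factor Onecut1 by 1.99 ± 0.39, Foxa3 by 1.46 ± 0.30 and Nr5a2 by 1.23 ± 0.25. In glycogen metabolism 1 of 13 genes was higher and 3 lower, and none of these 4 calls held in every fit with 1 array left out. Counts of lower glycogen genes were 0 without 12 h replicate 1 or 4 h replicate 1, and 1 without 12 h replicate 2 or 3. In the blocked fit Phka2 (0.0529) and Pygl (0.0622) did not pass. Gys2, the liver glycogen synthase, was at 0.41 ± 0.67 (0.84). In glycolysis Pfkfb1, which sets a regulator of the pathway, fell by 2.27 ± 0.38 and Pklr was at 0.00 ± 0.40. Pdk4, which shuts pyruvate dehydrogenase in fasting, was at −1.38 ± 0.56 (0.162). Heat shock proteins (13 members) and the DNA replication and mitosis list (28 members) had 0 members past the threshold.

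Hdc, which makes histamine, read 14.02, 13.95 and 11.62 at 12 h and 18.19, 16.66 and 16.32 at 4 h. All 12 h arrays were lower, and the change was −3.86 ± 0.83 (0.00841). It was −3.08 without 12 h replicate 3, and without 4 h replicate 1 the adjusted p was 0.05003. Its means were 18.68 at E21, 17.50 at 30 min, 17.06 at 4 h, 13.19 at 12 h, 7.66 at 1 day and 6.18 at 7 days. Of the 12 mast cell and basophil markers, which include Hdc, 2 were lower, Hdc and Kit (−0.62 ± 0.13), and 10 did not pass. The summed level of the list was 12.23 to 14.13 log2 at 12 h and 16.35 to 18.20 at 4 h. Most of that sum was Hdc itself, at 11.62 to 14.02 and 16.32 to 18.19, so it restates the change of Hdc. The median change of the list was −0.15. The list's defining genes Fcer1a, Tpsb2, Tpsab1, Mcpt1 and Mcpt4 lay below the silent level on all 6 arrays, and Cpa3 was at −0.45 ± 0.47. In the endothelial list Pecam1 was lower (−0.85 ± 0.20) and 14 members did not pass, a call lost without 12 h replicate 1 or 4 h replicate 2 (up to 0.0669). In the stellate list Pdgfrb was higher (1.24 ± 0.23) and Timp1 lower (−0.78 ± 0.22, lost without any array but 4 h replicate 3, up to 0.143). Without 12 h replicate 2 there were 3 lower endothelial markers, and without 4 h replicate 1 there were 4 lower stellate markers.

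Other genes of large change lie outside the lists. Slc34a2, a phosphate importer, read 13.52, 13.53 and 13.52 at 12 h, against 6.55, 6.88 and 7.06 at 4 h. It rose by 6.70 ± 0.61 (104-fold, 9.66e-06). Its 4 h arrays lay within the range of the silent genes, which reached 7.16, so the size of that fold is uncertain. Slc25a30 and Slc25a42, carriers of the mitochondrial inner membrane, the second of them for coenzyme A, rose by 4.40 ± 0.60 and 4.29 ± 0.48. The 4 h arrays of Slc25a42, at 6.71, 6.41 and 7.18, were near the silent level as well. Pdxk, which makes the active form of vitamin B6, read 11.78, 12.68 and 11.46 at 12 h and 7.23, 7.43 and 8.17 at 4 h, and rose by 4.36 ± 0.71. Insc, an adaptor of spindle orientation, was lower by at least 15.7-fold (0.00236), since its 12 h arrays were all below the silent level. That bound was 41.5-fold without 4 h replicate 3, 9.28-fold without 4 h replicate 1 and 10.1-fold without 4 h replicate 2.

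Few genes passed between 12 h and the next age. In the same fit 2 genes were higher (0.0106%) and 5 lower (0.0264%) at 1 day than at 12 h. The lower ones were Galk1l1, Hdc, Nr1d1, Tfcp2l1 and Tgfa, and the higher ones Cadps2 and Egfr. So few calls do not show equal levels, since some genes were widely spread at 1 day. The standard deviation of Inhbe, for example, was 2.22 at 1 day and 0.38 at 12 h. Plin2 was at −2.13 at 1 day minus 12 h and did not pass (limma adjusted p = 0.248). Acot1 averaged 6.71 at E21, 5.65 at 30 min, 6.63 at 4 h, 12.44 at 12 h, 12.32 at 1 day and 8.78 at 7 days. Lpin1 averaged 14.44, 15.64, 16.18, 10.96, 9.89 and 9.26 at the same ages. Msmo1 averaged 13.85 at E21, 14.47 at 30 min, 14.18 at 4 h, 9.83 at 12 h, 10.27 at 1 day and 13.85 at 7 days.

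The means compared for 1 day and E21 share no array with those for 12 h and 4 h. Both comparisons come from the same fit and share its estimate of spread, so their lists are not independent. At 1 day 638 genes were higher than at E21 (3.37%) and 323 lower (1.71%). Of the genes higher at 12 h 292 were also higher at 1 day than at E21, which is 30.4% of the first list and 45.8% of the second, and 0 were lower there. Of the genes lower at 12 h 130 were also lower at 1 day than at E21, which is 17.98% and 40.2% of the lists, and 2 were higher. Ppargc1a, Coq10b, Retreg1 and Sik1 belonged to the genes whose 4 h mean was above those of all other ages, and Inhbe, Slc34a2 and Acot1 to those that were low at all ages up to 4 h.

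**Figure D4:**
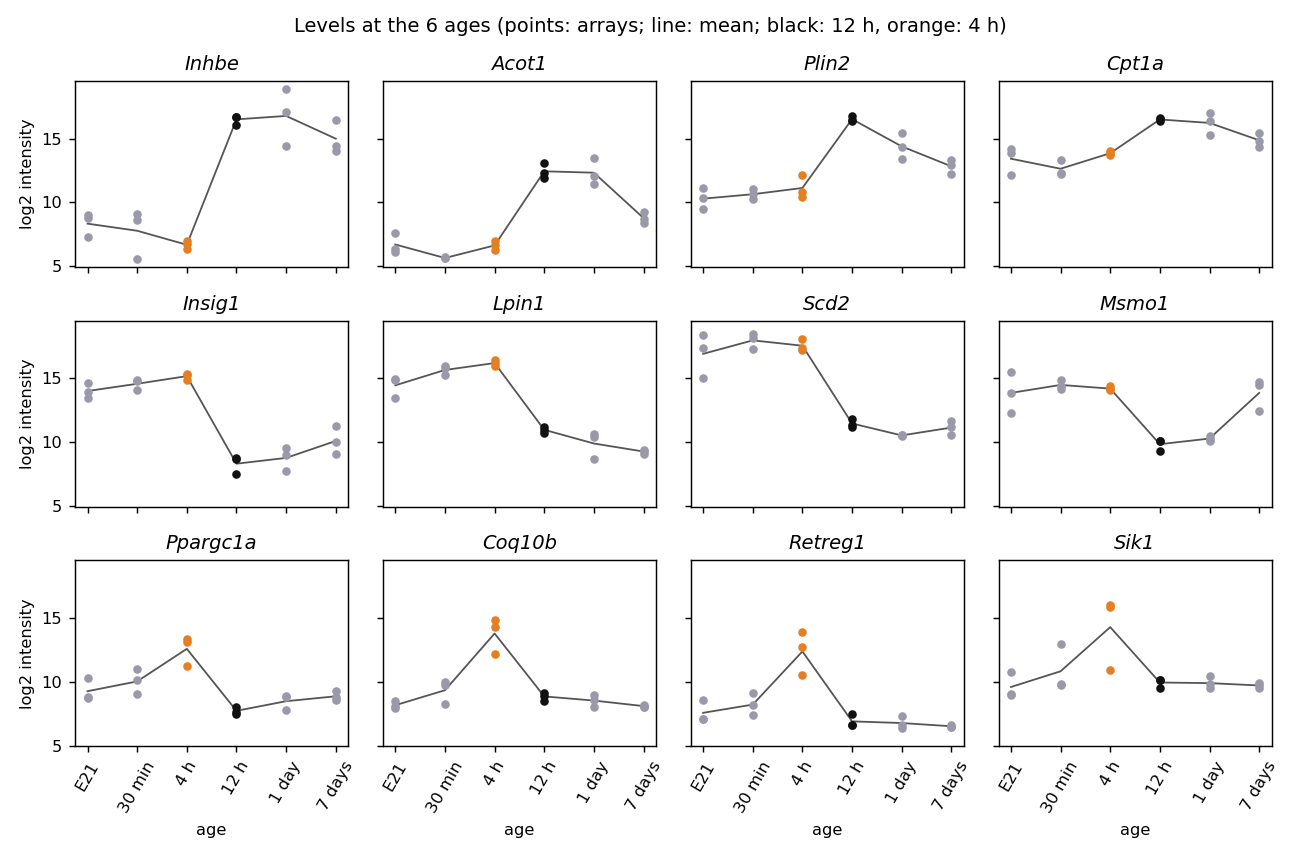
Log2 intensity of 12 genes at the 6 ages, in order of age, with points for the 3 arrays of each age, black for 12 h, orange for 4 h and grey for the others, and a line through the means. The upper row steps up between 4 h and 12 h, the middle row steps down, and the lower row has its highest mean at 4 h, where Sik1 has 1 array at 10.91 beside 16.01 and 15.88.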

How the data were processed

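Liver RNA of 18 samples had been measured, 3 at each of 6 ages, 1 array per sample. The submitters' processing notes name Affymetrix Expression Console 1.0 and RMA without saying which did what. Annotation release and filters are not given in the sources used here. The deposited values are one intensity for each transcript cluster (the probes of a whole gene), in a table of the authors' processed values for all arrays. They were linear, ran from 4.74 to 999969 on the 6 arrays of 12 h and 4 h, and had similar array medians. On all 6 arrays 225 features lay above 65535, the limit of a 16-bit scanner, which the notes do not explain. Folds are therefore those of the deposited scale, its relation to scanner signal is unknown, and background and centring steps are not stated beyond RMA. The arrays' number limits the precision.

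Nothing was added before the log2 was taken, and the arrays were not normalized again. Of 24753 features 19837 had 1 gene symbol in the platform annotation, 420 had several and 4496 had none, and only the first kind was tested as genes. 1 symbol was updated through its Entrez identifier. For 800 genes with several features the brightest over 18 arrays was used, which left 18926 genes. The model, in limma 3.58.1 (R 4.3.3), held 1 mean for each age, used all 18 arrays and moderated the standard errors by eBayes (12 residual and 3.05 prior degrees of freedom). The contrast was 12 h minus 4 h, two-sided, with Benjamini-Hochberg adjustment over all genes and a threshold of 0.05. Adjusted p-values in the text come from this fit unless another is named. The fit was tested on simulated data.

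Members, key genes and lists (38 pathway and 11 marker lists, 822 of 882 entries matched) were chosen with earlier results of these data known, and lists share members. Text names follow a rule: the 12 largest rises and falls among called genes whose ages did not overlap, 58 key genes of which 52 matched, and up to 6 called members per direction of each list. Other members of a list, and genes given in the closing section, were named after their values were seen. Summed levels are log2 of summed linear intensities. Promoters come from RefSeq on GRCr8, with 1 promoter per symbol, while no genome positions were used for the array features.

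The labels number the replicates without saying what a number means. Deviations from the age means correlated at 0.15, 0.298 and 0.222 between same-numbered arrays of 12 h and 4 h and at −0.251 to −0.0215 between others. That pairing comes from the data and not from the labels. A fit with the replicate number as a block is given beside a result where it changed the call. Other alternatives were the 6 arrays alone, each array left out, array weights, a trended and robust prior, quantile normalization, a constant of 16, a filter on dim genes, low values raised to the silent level, and another feature per gene.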

Additional observations from a re-analysis of the deposited data

How the results depend on the processing

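The counts of genes higher and lower at 12 h (961 and 723) became 2376 and 1512 with array weights. The lowest weight fell to 12 h replicate 3 (0.493) and the highest to 12 h replicate 1 (2.898), while 4 h replicate 3 had 0.5836. With the 6 arrays of 12 h and 4 h alone 575 genes were higher and 505 lower, and with low values raised to the silent level 653 and 460. Leaving out single arrays gave 491 to 1003 higher and 392 to 802 lower genes. The count for 1 day against E21 (961) ran from 425 to 1101 when single arrays were left out. The causes of these shifts were not tested. The other planned settings kept these counts within 1.5 times, and quantile normalization gave 941 higher and 860 lower genes. With the replicate block 999 genes were higher and 747 lower. Of the 156 named genes that passed, the block lost 7 (Sds, Vnn1, Acly, Abcb4, Pygl, Wdr43 and Phka2), it gained Igfbp1, and it changed no other call among the named genes. The 6 arrays alone lost 34 of the 156, raised low values 34, quantile normalization 5, the constant of 16 and the trended prior 4 each, the dimmest feature 1, and all features or array weights 0. The filter on dim genes left 6 of them untested and kept the other 150. All 6 leave-one-out fits kept 99. None of these 156 changed direction in any setting run. Genes that did not pass changed sign in some settings. With single arrays left out Egr1 ran from −0.15 (without 12 h replicate 3) to 0.84, Elovl6 from −0.386 to 0.0558 (without 12 h replicate 2), G6pc1 from −0.22 (without 4 h replicate 3) to 1.03, and Gys2 from −0.0268 (without 12 h replicate 2) to 0.654. Pklr ran from −0.281 (without 12 h replicate 1) to 0.279, with −0.152 without 4 h replicate 3. Ppp1r3b ran from −0.131 (without 4 h replicate 2) to 0.420, with −0.045 without 4 h replicate 1. Elovl6 was at 0.20 with array weights, and Ppp1r3b at −0.18 with low values raised. Genes near the silent level and at the top of the scale limit what can be measured.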

Other observations

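The gene families and single genes in this paragraph were chosen after their values were seen, and no test was run on a family as a whole. Over all genes 5.08% were higher and 3.82% lower at 12 h. Mitochondrial carriers, the Slc25a genes that bring substrates through the inner membrane, had 10 of 45 members higher, 3 lower and 32 not past at 12 h, with a median change of 0.04 log2. Besides the carriers named above, Slc25a47, a carrier of the liver, read 14.43, 14.73 and 14.88 at 12 h, against 10.94, 11.47 and 11.27 at 4 h, and rose by 3.45 ± 0.77 (limma adjusted p = 0.0105). Slc25a23, which exchanges ATP-magnesium and phosphate, rose by 1.97 ± 0.40 and Slc25a12, which exports aspartate, by 1.12 ± 0.19, while Slc25a32 fell by 1.37 ± 0.25. Acyl-CoA thioesterases were higher in 7 of 12 members, with 0 lower and a median of 0.57. The cytosolic ribosomal protein genes, 147 in all, had 0 members past the threshold, the 68 mitochondrial ones had 2 higher and 1 lower, and the 37 proteasome subunit genes had 1 lower. None of these ribosomal and proteasome counts exceeded the share over all genes.

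Paqr9 and Paqr7, of a family of progestin and adiponectin receptors, rose while 5 other members did not pass. Paqr9 read 13.90, 13.19 and 13.54 at 12 h, against 9.13, 9.65 and 9.92 at 4 h, and rose by 3.98 ± 0.50 (0.000151). Ephx2, which hydrolyses epoxides of fatty acids, rose by 3.71 ± 0.67 (0.0026). Egfr, the epidermal growth factor receptor, read 10.02, 10.09 and 10.56 at 12 h, against 13.69, 13.94 and 14.01 at 4 h, and fell by 3.66 ± 0.25 (1.3e-06).

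Features without a gene symbol, 4496 in all, held 64 that were higher and 59 that were lower at 12 h, which is 2.74%, against 6.99% of all 24753 features. TC0400002718.rn.1 read 6.28, 7.82 and 7.24 at 12 h, against 14.01, 14.38 and 14.07 at 4 h, a change of −7.04 ± 0.59 (6.84e-06). TC0600001828.rn.1 changed by 3.59 ± 0.88 (0.0212).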
